A study of Homo sapiens with 12 samples.

Results

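The 32 genes of cholesterol and fatty acid synthesis and of their regulation were followed in polysome profiling data of H1299 cells, a human non-small-cell lung cancer line, with and without silencing of EIF3G. The members were named from pathway knowledge, with earlier results of these data known. They hold 18 enzymes of the sterol branch (7 of the mevalonate pathway and 11 that turn farnesyl diphosphate into cholesterol) and 8 enzymes of fatty acid synthesis and desaturation. The other 6, called regulators below, are SREBF1, SREBF2, SCAP, INSIG1, INSIG2 and the sterol carrier STARD4. The members are 32 of the 16172 genes in the expression table. All 32 had a mean of at least 1 TPM (transcripts per 1000000 transcripts, a level corrected for transcript length and library total) over the 12 libraries.

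The mevalonate pathway builds isoprenoid units from acetyl-CoA, and the sterol enzymes join them into squalene, close the rings and trim lanosterol to cholesterol. Fatty acid synthesis draws on the same cytosolic acetyl-CoA, which ACLY splits from citrate and ACSS2 makes from acetate. Both branches are transcribed under sterol regulatory element-binding proteins (encoded by SREBF1 and SREBF2), which the escort protein SCAP carries to the Golgi when membrane sterol is low and which INSIG proteins hold back in the endoplasmic reticulum when it is high.

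Cells were transfected with siCtrl, a control siRNA, or with siEIF3G, an equal mix of a pair of siRNAs against EIF3G, a subunit of the translation initiation factor eIF3. They were lysed 72 h later, 10% of the lysate was kept as input RNA, and the polysomal fraction of a 10% to 50% sucrose gradient, which holds mRNAs bound by several ribosomes, gave the second RNA pool. Each siRNA gave 3 input and 3 polysomal libraries, so the 12 libraries form 4 groups, named below by siRNA and fraction; all were made from poly(A)-selected RNA of 1 line. Nothing in the labels tells whether replicates came from separate cultures, so the p-values below measure the spread between these libraries, which may be technical. Values are shares of a library, so fewer cells and less RNA per cell cannot be told apart, and TPM keep no read numbers, so the depth behind each value is unknown.

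EIF3G was at 1043 ± 147 TPM in siCtrl input and 64.3 ± 19.0 TPM in siEIF3G input (SD, n = 3 each), and at 1800 ± 118 and 115 ± 39.9 TPM in the polysomal groups. By limma this is a log2 fold change of -4.03 in the input (SE 0.29, adjusted p = 3.71e-05) and of -4.02 on polysomes (adjusted p = 3.76e-05). Of the markers checked for the line, KRT8 (108 to 429 TPM), KRT18 and VIM were expressed, while KRT19, EPCAM, CDH1, NKX2-1 and SFTPB stayed at or below 0.61 TPM in every library. Markers of blood, vessel, connective tissue, liver and fat cells (8 of 13 in the table) summed to 59.1 to 132 TPM a library, nearly all of it CD68; the other 7 stayed at or below 0.23 TPM. Across all genes, 3 libraries correlated better with the other fraction of their siRNA than with their own group: siCtrl input 1 (mean Pearson r 0.957 against 0.922), siEIF3G input 2 (0.958 against 0.929) and siEIF3G polysomal 3 (0.953 against 0.949). Some results that rest on these libraries are given with and without them, and others only with them. Because they were picked by likeness to the other fraction, leaving them out favours a larger contrast between fractions.

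Most promoters of the sterol enzymes shared a sequence feature. Shown are those of FDPS, EBP, MVD and PMVK, sterol enzymes whose values stand out below, and that of SREBF2, for its sterol regulatory element core. A promoter entry of the RefSeq table (build GRCh38.p14) was found for 28 of the 32 members, and the 250 bases before each listed start were searched on both strands. The NF-Y box CCAAT, which reads as ATTGG on the opposite strand and is bound by the factor NF-Y that acts beside SREBP, was present for 20 of the 28 members. It was present for 42.2% of the 8722 tested genes with an entry and in 32% of all 35116 promoters. By branch it was found for 13 of 15 sterol enzymes, 4 of 7 fatty acid enzymes and 3 of 6 regulators. The sterol regulatory element core TCACNCCAC was found for 1 member, SREBF2, against 1.15% of the tested genes. The E-box CACGTG was found for SC5D, INSIG1 and SCAP, against 11.8% of the tested genes, and the Sp1 box GGGCGG for 27 of 28 members, against 77.6%. Each stretch below ends 1 base before the listed start and reads 5′ to 3′ on the gene's strand. Capitals mark NF-Y boxes on either strand and, in SREBF2, the element core TCACCCCAC as well. Sp1 boxes are left in lower case.
FDPS, chr1:155308716-155308865, plus strand: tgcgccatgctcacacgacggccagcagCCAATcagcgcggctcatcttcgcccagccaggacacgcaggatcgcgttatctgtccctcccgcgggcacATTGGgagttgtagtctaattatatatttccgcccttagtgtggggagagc
EBP, chrX:48521658-48521807, plus strand: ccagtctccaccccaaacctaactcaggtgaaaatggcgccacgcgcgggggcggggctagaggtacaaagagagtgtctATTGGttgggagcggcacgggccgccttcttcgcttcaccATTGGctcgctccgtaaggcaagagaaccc
MVD, chr16:88663092-88663241, minus strand: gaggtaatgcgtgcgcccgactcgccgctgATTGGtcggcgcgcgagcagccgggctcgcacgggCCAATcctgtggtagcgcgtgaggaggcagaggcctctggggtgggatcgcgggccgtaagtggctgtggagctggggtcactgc
PMVK, chr1:154936720-154936869, minus strand: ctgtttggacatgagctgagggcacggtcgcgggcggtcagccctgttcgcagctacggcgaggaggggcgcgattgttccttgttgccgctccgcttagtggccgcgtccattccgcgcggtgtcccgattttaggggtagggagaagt
SREBF2, chr22:41832955-41833104, plus strand: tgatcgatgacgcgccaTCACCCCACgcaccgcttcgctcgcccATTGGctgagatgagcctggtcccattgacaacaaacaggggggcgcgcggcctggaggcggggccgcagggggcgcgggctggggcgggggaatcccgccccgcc
FDPS, EBP and MVD each carry 2 NF-Y boxes in the printed stretch, while PMVK, the kinase that follows MVK in the pathway, carries none there or elsewhere in its window. On the minus strand the gene model of PMVK begins further upstream, at chr1:154942658, and the bases before that point were not searched. The SREBF2 stretch overlaps an antisense gene, SREBF2-AS1. These matches describe letters in a window, not binding.

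By summed TPM the sterol branch, which has more genes, was the larger of the pair in every library. The sum of its 18 enzymes was 1698 ± 347 TPM in siCtrl input and the sum of the 8 fatty acid enzymes 576 ± 316 TPM (SD, n = 3). All 32 members took 0.164% to 0.462% of a library. FDPS, which makes farnesyl diphosphate, was the highest member, at 582 ± 179.7 TPM in siCtrl input, and SCD, the desaturase that makes oleate, the second, at 341 ± 213 TPM. SC5D, an enzyme of late sterol synthesis, was the lowest, at 5.20 ± 3.95 TPM.

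**Figure D1:**
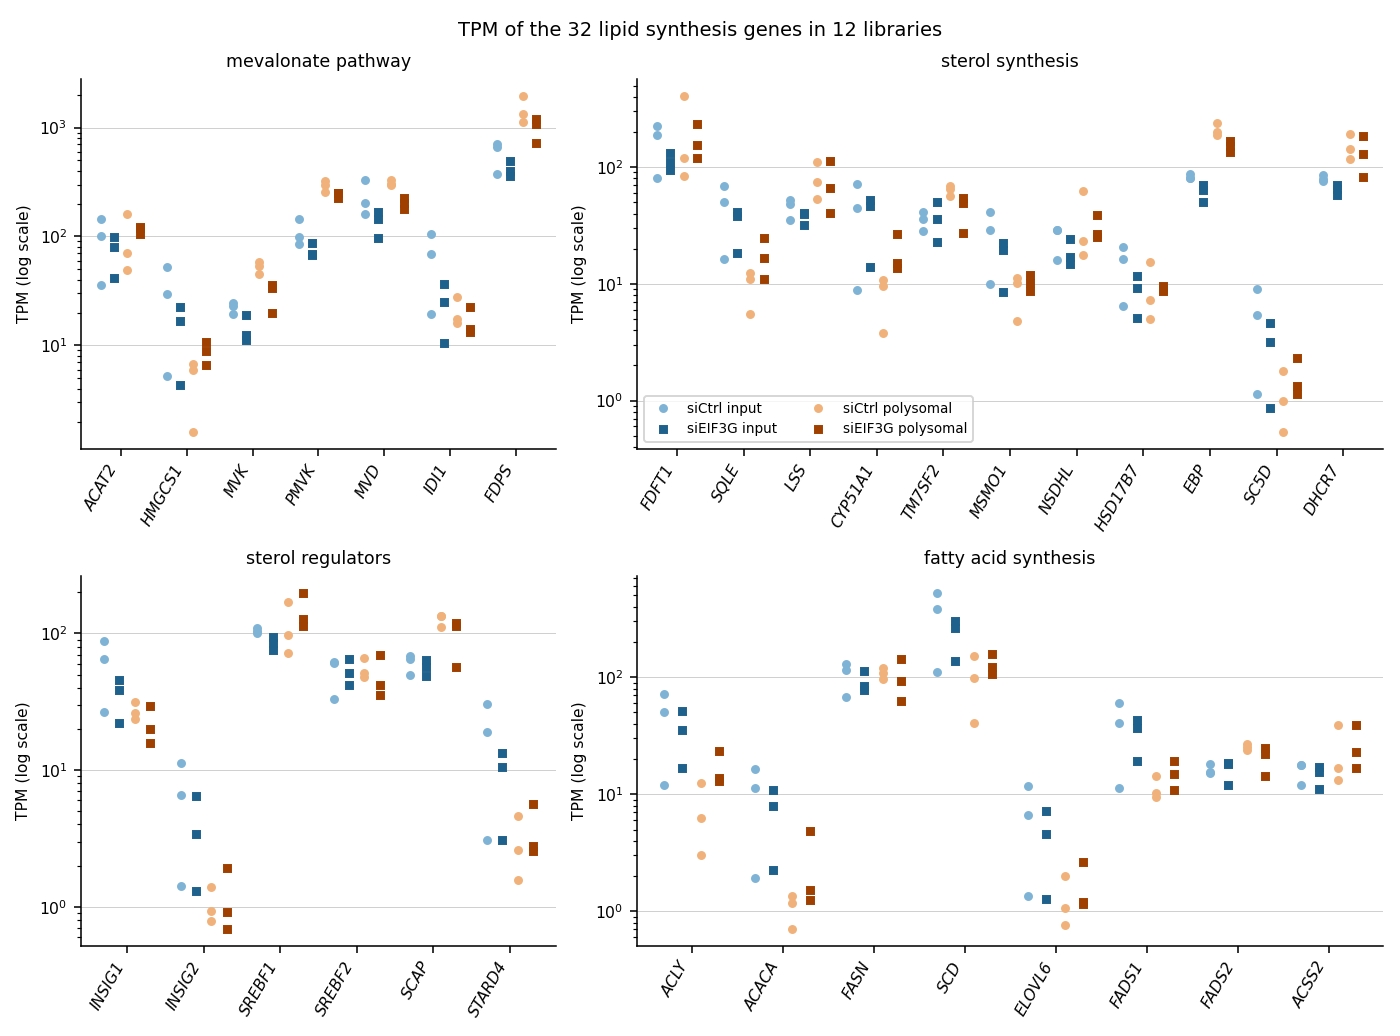
TPM of each of the 32 members in each of the 12 libraries on a log axis, by group, with members ordered by role. Within siCtrl input some members spread widely between libraries (HMGCS1 by 9.92-fold from lowest to highest) and others hardly (SREBF1 by 1.08-fold).

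Members differed widely in how far the 3 siCtrl input libraries spread. The ratio of the highest to the lowest library was 9.92 for HMGCS1, 9.78 for STARD4, 8.68 for ELOVL6, 8.47 for ACACA and 8.08 for CYP51A1. It was 1.08 for SREBF1, 1.09 for EBP, 1.13 for DHCR7, 1.19 for FADS2 and 1.28 for MVK. In the first set siCtrl input 1, a library that stood apart, was the lowest of the 3.

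Silencing of EIF3G left no member past the threshold in input RNA. Fold changes of the sterol enzymes lay mostly below 0: 17 of 18 were negative, with a median log2 fold change of -0.44, against -0.05 over all 10605 genes tested, of which 43.0% were positive. All 7 mevalonate enzymes were negative (median -0.64), as were 10 of 11 later sterol enzymes (median -0.36) and 5 of 6 regulators (median -0.41). In the fatty acid branch 7 of 8 were negative, with a median of -0.16. Called by limma were 0 of 32 members, beside 0.0189% of all genes (2 genes), and every member's adjusted p was 1.00. At an unadjusted p under 0.05 there were 3 members (MVD, PMVK and IDI1), against 1.36% of all genes.

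**Figure D2:**
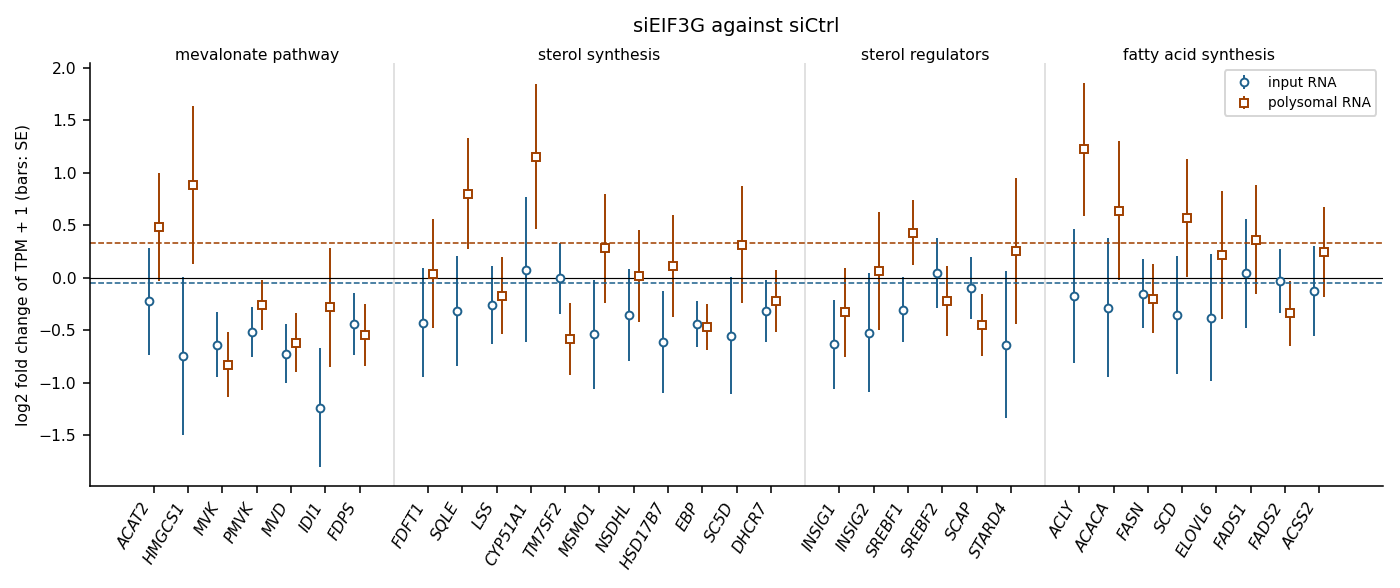
Log2 fold change of siEIF3G over siCtrl for each member in input RNA and in polysomal RNA, on the log2(TPM + 1) scale, with 1 SE as bars; the dashed lines mark the median of all genes in each fraction (-0.05 and 0.33). No member passed the threshold in either fraction.

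In the mevalonate pathway, MVK phosphorylates mevalonate, and its level was 23.2, 24.6 and 19.3 TPM in siCtrl input against 11.3, 19.1 and 12.5 TPM in siEIF3G input. Every knockdown library lay below every control library, by a narrow margin between 19.1 and 19.3 TPM (log2 fold change -0.64, SE 0.31, limma adjusted p = 1.00). MVD, which decarboxylates the diphosphate to isopentenyl diphosphate, was at 329, 204 and 159.8 TPM in control and 145, 168 and 96.9 TPM in knockdown input. The groups overlapped through siEIF3G input 2 (-0.72, SE 0.28, unadjusted p = 0.024). IDI1, the isomerase of isopentenyl diphosphate, had the lowest fold change of the members. It was at 19.6, 68.7 and 105 TPM in control and 36.7, 10.6 and 25.3 TPM in knockdown input (-1.24, SE 0.57, unadjusted p = 0.048). Control libraries 2 and 3 lay above all knockdown libraries and control library 1 below 2 of them. HMGCS1, which makes the substrate of the rate-limiting reductase, was at 5.28, 29.9 and 52.4 TPM in control and 22.3, 4.30 and 16.8 TPM in knockdown input. Its lowest values were those of siCtrl input 1 and siEIF3G input 2, libraries that stood apart (-0.75, SE 0.75).

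Among the later sterol enzymes, EBP, the isomerase that shifts the ring double bond, was at 80.9, 87.3 and 79.9 TPM in control and 50.1, 69.9 and 63.7 TPM in knockdown input. The groups did not overlap (log2 fold change -0.44, SE 0.22, limma adjusted p = 1.00). DHCR7, which reduces 7-dehydrocholesterol in the last steps, was at 76.3, 86.1 and 78.5 TPM in control and 57.6, 70.8 and 64.6 TPM in knockdown input, again without overlap (-0.32, SE 0.29). CYP51A1, which demethylates lanosterol, had the highest fold change of the members. Its values of 8.83, 44.6 and 71.3 TPM in control and 46.5, 13.9 and 52.7 TPM in knockdown input overlapped throughout (0.08, SE 0.69).

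SREBF1, the regulator tied mainly to fatty acid genes, was at 101, 109 and 105 TPM in control and 75.6, 93.5 and 85.7 TPM in knockdown input. Its groups did not overlap, with the knockdown values lower (log2 fold change -0.31, SE 0.31, limma adjusted p = 1.00). SREBF2, tied mainly to sterol genes, was at 33.2, 60.9 and 61.7 TPM against 42.0, 51.0 and 64.7 TPM, and the groups overlapped (0.05, SE 0.33). INSIG1, a target of SREBP that restrains it, was at 26.4, 64.5 and 87.6 TPM against 38.5, 22.1 and 45.5 TPM, and the groups overlapped (-0.64, SE 0.43). Of the fatty acid branch, FADS1, a desaturase of polyunsaturated fatty acids, was at 11.3, 40.4 and 60.1 TPM against 37.0, 19.3 and 42.9 TPM, which overlapped (0.04, SE 0.52).

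In all, 4 members lay lower in every siEIF3G input library than in any siCtrl input library (MVK, EBP, DHCR7 and SREBF1), beside 1.8% of all genes. Higher in every knockdown library were 0 members, beside 1.88% of all genes. These 4 are among the members whose control libraries were most alike. They were the same in sign under each of the scalings tried. Among all members, TM7SF2, SCAP, FADS1 and FADS2, with fold changes near 0, changed sign with the scaling.

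In polysomal RNA the fold changes of siEIF3G over siCtrl were spread to both sides of 0, and no member passed the threshold. As deposited, the median of all genes was itself 0.33, with 72.7% of genes positive; it was -0.03 after rescaling by size factors and 0.01 after quantile normalization. Of the members, 18 of 32 were positive, and the median was 0.05, which is -0.28 relative to all genes. The sterol branch had a median of -0.08 (9 of 18 positive; -0.41 relative to all genes) and the mevalonate enzymes of -0.28 (-0.62). The fatty acid branch had a median of 0.30 (6 of 8 positive; -0.03 relative to all genes). With the change of scaling 12 of the 32 members changed sign, SREBF1 among them. Limma called 0 of 32 members, beside 0.0189% of all genes (adjusted p between 0.65 and 0.984); at an unadjusted p under 0.05 there were 2 (MVK and MVD), against 6.69% of all genes.

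MVK was at 58.1, 53.8 and 45.5 TPM in siCtrl polysomal and 33.7, 36.0 and 19.9 TPM in siEIF3G polysomal RNA. The groups were clearly apart, and its log2 fold change of -0.83 was the lowest of the members (SE 0.31, unadjusted p = 0.020, limma adjusted p = 0.65). MVD was at 304, 332 and 296 TPM against 204, 227 and 177 TPM, with all knockdown libraries lower (-0.62, SE 0.28, unadjusted p = 0.048). PMVK, the kinase between them in the pathway, was at 258, 298 and 321 TPM against 250.02, 227 and 252 TPM. Its groups did not overlap either, though siCtrl polysomal 1 and siEIF3G polysomal 3 were close (-0.26, SE 0.24). HMGCS1 was at 6.79, 5.96 and 1.61 TPM against 6.67, 8.80 and 10.8 TPM, and the groups overlapped at the lowest knockdown library (0.88, SE 0.75).

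EBP was at 239, 202 and 187 TPM in control and 166, 150.5 and 135 TPM in knockdown polysomal RNA, without overlap (log2 fold change -0.47, SE 0.22, unadjusted p = 0.051). TM7SF2, a sterol reductase that acts after CYP51A1, was at 56.0, 64.4 and 68.8 TPM against 54.4, 48.9 and 27 TPM, narrowly without overlap (-0.58, SE 0.34). Its lowest value was in siEIF3G polysomal 3, a library that stood apart, and its fold change ran from -1.12 to -0.22 over the alternative settings. CYP51A1 lay the other way, at 9.56, 10.7 and 3.77 TPM against 14.9, 13.8 and 26.6 TPM, with every knockdown library higher (1.16, SE 0.69). Its highest knockdown value, too, was in siEIF3G polysomal 3. The fatty acid branch held the highest fold change. ACLY was at 12.4, 6.32 and 3.03 TPM against 13.8, 12.9 and 23.6 TPM (1.23, SE 0.64), with the highest value in siEIF3G polysomal 3, a library that stood apart.

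The regulators SREBF1, SREBF2 and INSIG1 did not separate the polysomal groups. SREBF1 was at 169, 96.7 and 72.0 TPM against 114, 199 and 128 TPM (log2 fold change 0.43, SE 0.31). SREBF2 was at 66.6, 48.0 and 51.6 TPM against 41.7, 69.4 and 35.5 TPM (-0.22, SE 0.33). INSIG1 was at 23.6, 31.4 and 26.0 TPM against 19.9, 15.9 and 29.5 TPM (-0.33, SE 0.43).

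Lower in every knockdown library of the polysomal fraction were 5 members, all of the sterol branch (MVK, PMVK, MVD, EBP and TM7SF2), beside 7.61% of all genes. Higher in every knockdown library were 2 members (CYP51A1 and ACLY), beside 21.6% of all genes. MVK and EBP were lower without overlap in both fractions, beside 1.11% of all genes, and no member was higher in both (0.537% of all genes). Without the 3 libraries that stood apart, the values of MVK were -0.82 in input and -0.57 in polysomal RNA, and those of EBP were -0.55 and -0.39. Again no member was called then (0 of 32 in each fraction, beside 0.0471% and 0.0377% of all genes). The gene model of MVK overlaps another gene of the table, as do those of IDI1, SREBF1, ACAT2, FADS1 and FADS2. Whether counting used the strand is not given in the sources used here. The gene model of EBP overlaps none.

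The effect of the knockdown on polysome loading is the polysomal fold change minus the input fold change. For the members it was a median of 0.42, against 0.38 over all genes. Positive were 24 of 32 members, beside 73.9% of all genes, and the values of the branches lay close together (0.42 for the sterol and 0.48 for the fatty acid branch). The highest were HMGCS1 (1.63, SE 1.06), ACLY (1.40, SE 0.90) and SQLE (1.12, SE 0.75), and the lowest TM7SF2 (-0.58, SE 0.48), SCAP (-0.35, SE 0.42) and FADS2 (-0.31, SE 0.43). Limma called 0 of 32 members and 0 genes of all 10605 (adjusted p of the members from 0.908); at an unadjusted p under 0.05 there were 0 members and 19 genes, 0.179%. With other scalings 10 members changed sign, none of them among the 6 just named.

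In polysomal against input RNA some members passed the threshold. In control cells 6 members were higher in polysomal RNA by limma: PMVK, FDPS, EBP, MVK, SCAP and DHCR7, that is 5 sterol enzymes and the SREBP escort. Another 7 were lower: ACLY, ACACA and SCD of fatty acid synthesis, HMGCS1, SQLE and CYP51A1 of the sterol branch, and INSIG2. Of all genes, 7.98% were called higher and 28.9% lower, so only the higher calls were more frequent among the members than among all genes. This split moved with the scaling: with size factors 14 members were called higher and 4 lower (25.5% and 18.5% of all genes), and with a total without ribosomal protein genes 6 higher and 14 lower (7.19% and 46.0%). The median log2 fold change was 0.20 in the sterol branch and -1.42 in the fatty acid branch, against -0.96 over all genes. Relative to all genes that is 1.16 and -0.45, and 0.49 for the regulators. With quantile normalization these relative values were 0.40 and -0.47, and the regulators turned to -0.13.

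**Figure D3:**
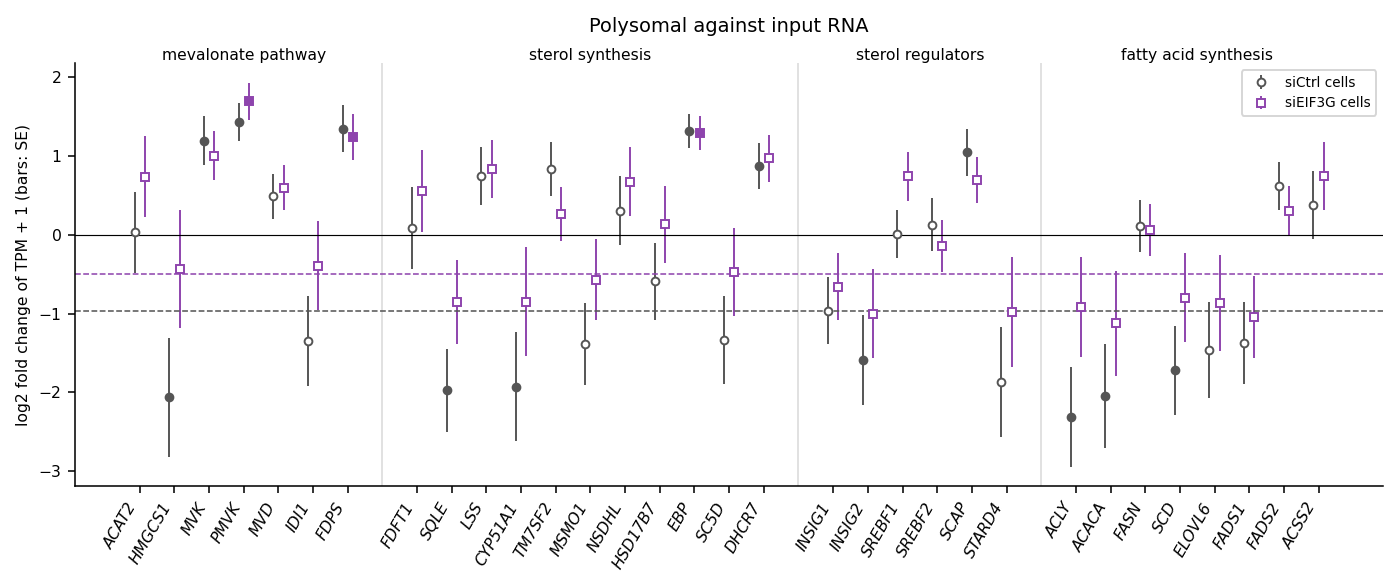
Log2 fold change of polysomal over input RNA for each member, in control and in knockdown cells, on the log2(TPM + 1) scale with 1 SE as bars, grouped by role; filled symbols passed the limma threshold and dashed lines mark the median of all genes (-0.96 and -0.49). In control cells values run from -2.32 (ACLY) to 1.43 (PMVK), and both branches hold members on either side of 0.

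On the higher side, PMVK was at 146, 99.4 and 84.7 TPM in siCtrl input, and all its polysomal libraries, given above, were higher. Its log2 fold change was 1.43 (SE 0.24, limma adjusted p = 0.0065). FDPS was at 377, 659 and 711 TPM in input and 1963, 1329 and 1118 TPM in polysomal RNA (1.35, SE 0.30, adjusted p = 0.018). EBP, with input and polysomal values far apart, had 1.32 (SE 0.22, adjusted p = 0.0062). MVK had 1.2 (SE 0.31, adjusted p = 0.028), with all polysomal libraries above all input libraries. SCAP was at 67.8, 65.4 and 49.4 TPM in input and 111, 134 and 133 TPM in polysomal RNA (1.05, SE 0.29, adjusted p = 0.033). DHCR7 was at 192, 143 and 117 TPM in polysomal RNA, above every input library (0.87, SE 0.30, adjusted p = 0.044).

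On the lower side, the groups mostly touched, because siCtrl input 1 lay near the polysomal libraries. ACLY was at 12, 50.7 and 71.4 TPM in siCtrl input against the polysomal 12.4, 6.32 and 3.03 TPM, and its log2 fold change was -2.32 (SE 0.64, limma adjusted p = 0.031). SCD was at 110.1, 385 and 528 TPM against 152, 98.4 and 40.6 TPM, so that siCtrl input 1 lay inside the polysomal range (-1.72, SE 0.56, adjusted p = 0.041). ACACA, the acetyl-CoA carboxylase that commits carbon to fatty acids, was at 1.93, 11.2 and 16.4 TPM against 1.17, 1.36 and 0.71 TPM, without overlap (-2.05, SE 0.66, adjusted p = 0.041). SQLE, the first oxygenase of sterol synthesis, was at 16.3, 50.6 and 68.9 TPM against 10.9, 12.4 and 5.47 TPM, also without overlap (-1.97, SE 0.53, adjusted p = 0.030). INSIG2, the second INSIG protein, was at 1.42, 6.59 and 11.2 TPM against 0.93, 1.40 and 0.78 TPM and just did not overlap (-1.59, SE 0.57, adjusted p = 0.046). HMGCS1 (-2.06, SE 0.75, adjusted p = 0.048) and CYP51A1 (-1.93, SE 0.69, adjusted p = 0.047) fell with overlapping groups.

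Just outside the threshold in control cells were MSMO1 (-1.39, adjusted p = 0.0501), STARD4, a sterol carrier (-1.87, adjusted p = 0.0506), and FADS1 (-1.37, adjusted p = 0.052). TM7SF2, at 40.9, 35.9 and 28.5 TPM in siCtrl input and higher in each polysomal library, had 0.84 (adjusted p = 0.059). IDI1 was at 16.1, 28.0 and 17.4 TPM in siCtrl polysomal RNA (-1.35, adjusted p = 0.064), overlapping its input values. Without overlap, 9 members were higher in polysomal RNA (beside 16.9% of all genes) and 3 lower (beside 28.9%).

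How many members passed depended on single libraries. Leaving out siCtrl input 1 raised the count from 13 to 22, while all genes called rose from 3912 to 7185 of 10605. Leaving out siEIF3G input 2, which enters only through the shared spread, raised the member count to 20, beside 5775 of all genes. The member count dropped to 2 or 3 without any other siCtrl library, beside 130 to 273 of all genes. It was 7 and 8 without siEIF3G polysomal 1 and 2, beside 1097 and 1545 of all genes. Without all 3 libraries that stood apart it was 23, of which 8 were higher and 15 lower, with 13.3% and 61.8% of all genes called. A rise was favoured by the choice of these libraries, which resembled the other fraction. EBP and PMVK kept their call in 26 of 28 alternative settings, FDPS in 23, MVK in 21, SCAP in 20, ACLY and SQLE in 19, and HMGCS1 and CYP51A1 in 9. Scaling moved the zero point: with size factors the median of all genes was -0.10, the 6 higher members lay between 1.96 and 2.52, and HMGCS1, CYP51A1 and SCD were no longer called. In their place ACAT2, LSS, NSDHL and TM7SF2 of the sterol branch, ACSS2, FADS2 and FASN of the fatty acid branch, and SREBF2 were called higher. No called member changed sign with the scaling.

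In knockdown cells 3 members rose in polysomal against input RNA, all 3 of which were also called in control cells, and none fell. PMVK had a log2 fold change of 1.69 (SE 0.24, limma adjusted p = 0.0032), with 69.7, 88.0 and 67.0 TPM in siEIF3G input. EBP had 1.29 (SE 0.22, adjusted p = 0.0086), and FDPS, at 360.4, 399 and 491 TPM in input and 1073, 1197 and 728 TPM in polysomal RNA, had 1.24 (SE 0.30, adjusted p = 0.040). All polysomal libraries lay above all input libraries for each. Of all genes 1.81% were called higher and 1.33% lower. The sterol branch had a median of 0.58 and the fatty acid branch of -0.83, against -0.49 over all genes.

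DHCR7 (0.97, adjusted p = 0.099) and MVK (1.0, adjusted p = 0.10), called in control cells, missed the threshold in knockdown cells; whether the effect differed is the loading comparison above, in which no member passed. SCAP, at 56.5, 64.3 and 49.2 TPM in siEIF3G input and 112, 120.1 and 56.7 TPM in polysomal RNA, had 0.69 (adjusted p = 0.21), with the low value in siEIF3G polysomal 3. No fatty acid enzyme passed the threshold in knockdown cells. ACLY was at 35.5, 16.6 and 51.8 TPM in siEIF3G input (-0.92, SE 0.64, adjusted p = 0.38). ACACA was at 10.8, 2.24 and 8 TPM in input and 1.52, 1.26 and 4.82 TPM in polysomal RNA (-1.12, SE 0.66). SCD was at 261, 136 and 303 TPM in input and 121, 107 and 157 TPM in polysomal RNA (-0.80, SE 0.56), and for each of these 3 genes siEIF3G input 2 lay below siEIF3G polysomal 3. SQLE was at 38.3, 18.3 and 41.4 TPM against 16.7, 11.1 and 24.6 TPM (-0.85, SE 0.53), and INSIG2 at 6.48, 1.31 and 3.38 TPM against 0.69, 0.91 and 1.92 TPM (-1.0, SE 0.57). FADS1 was the lower member without overlap, beside 12.7% of all genes, and only by a near tie. It was at 14.89, 10.84 and 19.3 TPM in siEIF3G polysomal RNA, and its lowest siEIF3G input library was at 19.31 TPM (-1.05, SE 0.52).

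Higher without overlap in knockdown cells were 10 members, beside 9.4% of all genes. In both siRNA conditions MVK, PMVK, FDPS, LSS, EBP and DHCR7 were higher in polysomal RNA without overlap, 6 members of the sterol branch, beside 7.2% of all genes, and no member was lower in both (8.66% of all genes). Without the 3 libraries that stood apart, 25 members were called in knockdown cells, 11 higher and 14 lower, with 16.4% and 54.8% of all genes called. Here too the choice of these libraries favoured a rise. The count was 6 without siEIF3G polysomal 3 alone, beside 788 of all genes. It was 1 without siEIF3G polysomal 1 or siEIF3G input 1, beside 44 and 61 of all genes. With size factors it was 0, beside 50 of all genes, and PMVK then stood at 2.24 (limma adjusted p = 0.068).

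Summed by branch, the sterol enzymes and the ratio of the branches separated the fractions, while the fatty acid sums overlapped. The sum of the sterol enzymes was 1309, 1809 and 1976 TPM in siCtrl input and 3880, 2785 and 2394 TPM in siCtrl polysomal RNA. The sum of the fatty acid enzymes was 231.5, 646 and 851 TPM in siCtrl input and 364, 272 and 191 TPM in siCtrl polysomal RNA. As a ratio, sterol over fatty acid sums were 5.65, 2.80 and 2.32 in siCtrl input and 10.7, 10.2 and 12.5 in siCtrl polysomal RNA. Each polysomal library lay above each input library.

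In knockdown cells the sterol sums were 1148, 1117 and 1287 TPM in input, each below every control input library, and 2335, 2650.4 and 1839.8 TPM in polysomal RNA, which overlapped the control. The fatty acid sums were 459, 287 and 558 TPM in input and 291, 341 and 301 TPM in polysomal RNA, overlapping the control in both. The ratio was 2.50, 3.89 and 2.31 in siEIF3G input and 8.03, 7.77 and 6.12 in siEIF3G polysomal RNA. On polysomes the ratios of the knockdown libraries were thus all lower than those of the control (7.31 ± 1.03 against 11.1 ± 1.23, SD, n = 3), and input ratios overlapped (2.90 ± 0.86 against 3.59 ± 1.80). These ratios were not tested, because the branches were named with results of these data known.

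**Figure D4:**
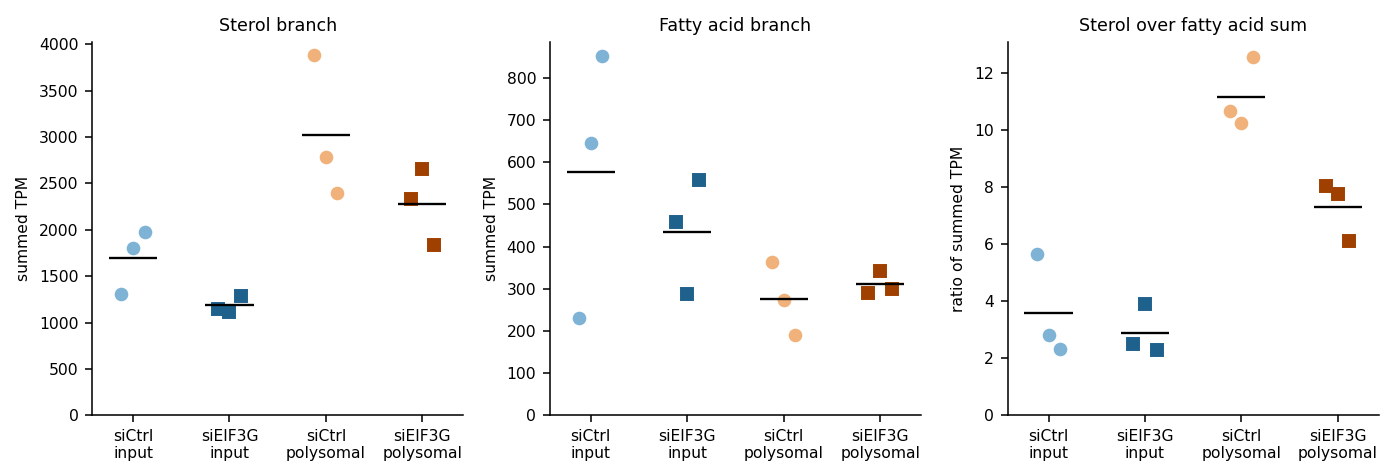
Summed TPM of the 18 sterol enzymes and of the 8 fatty acid enzymes, and their ratio, in each of the 12 libraries (points) with the group mean (line). The ratio is 10.2 to 12.5 in siCtrl polysomal, 6.12 to 8.03 in siEIF3G polysomal and at most 5.65 in the input libraries.

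FDPS made up 28.8% to 50.6% of the sterol sum, so the ratio leans on 1 gene. FDPS and SCD were the highest genes of their branches in siCtrl input, though in siCtrl polysomal RNA FASN (mean 109 TPM) was above SCD (97.0 TPM). Without FDPS and SCD the ratio was 7.68, 4.41 and 3.92 in siCtrl input and 3.98, 4.76 and 3.12 in siEIF3G input. It was 9.05, 8.37 and 8.50 in siCtrl polysomal and 7.45, 6.21 and 7.73 in siEIF3G polysomal RNA. The polysomal knockdown libraries still lay below the polysomal control libraries, while siCtrl input 1 now lay above 2 of the 3 knockdown polysomal libraries. Weighting genes alike, the mean log2(TPM + 1) of the sterol enzymes exceeded that of the fatty acid enzymes by 1.60 to 1.67 in siCtrl polysomal, 1.09 to 1.43 in siEIF3G polysomal, 0.50 to 1.13 in siCtrl input and 0.29 to 0.70 in siEIF3G input RNA. With branch medians in place of means the difference was 1.66 to 1.99 in siCtrl polysomal and 0.90 to 1.19 in siCtrl input RNA. In knockdown cells it was 1.2, 1.23 and 0.56 in polysomal and 0.82, 0.64 and 0.52 in input RNA, so there the fractions overlapped through siEIF3G polysomal 3.

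By medians of log2 fold changes, the sterol branch minus the fatty acid branch was 1.61 for polysomal against input RNA in control cells and 1.41 in knockdown cells. Quantile normalization brought these to 0.88 and 0.89. The same difference for the knockdown effect was -0.28 in input and -0.38 in polysomal RNA. Without siCtrl input 1 the input value was 0.03, and without siEIF3G polysomal 3 the polysomal value was -0.09. Both knockdown differences moved with a library that stood apart.

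Within the branches the members were not alike. In control cells the sterol branch ran from -2.06 (HMGCS1) to 1.43 (PMVK) in polysomal against input RNA, and 5 of its 18 enzymes were called higher and 3 lower. In the fatty acid branch 0 of 8 were called higher and 3 lower, beside 7.98% and 28.9% of all genes. Its FADS2 (0.62), ACSS2 (0.38) and FASN, the fatty acid synthase itself (0.11), were positive but not called. With size factors these 3 were called higher, at 1.66, 1.42 and 1.2, and with the total without ribosomal protein genes FASN was at -0.01. The other sterol enzymes were LSS (0.75), MVD (0.49), NSDHL (0.30), FDFT1 (0.09), ACAT2 (0.03), HSD17B7 (-0.59) and SC5D (-1.34), and the remaining fatty acid enzyme was ELOVL6 (-1.47). FADS1 and FADS2 overlap each other in the genome, so reads of 1 could count for the other.

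The place of a member between the fractions went with its spread between libraries of 1 group. Each library's deviation from its group mean was taken over all tested genes, and the first principal axis of these deviations held 78.0% of their variance. All 15 members with a negative fold change in control cells increased along it, by a fitted 1.38 to 2.94 log2 units from its lowest to its highest library (median 2.12). Of the 17 with a positive fold change 8 increased, with a median of -0.02, and over all genes 8057 of 10605 increased, with a median of 1.27. HMGCS1 (2.94), CYP51A1 (2.84) and STARD4 (2.77) had the highest values, and TM7SF2 (-0.88) and MVD (-0.85) had the lowest values. Across the 32 members the change along the axis and the polysomal fold change had a Pearson r of -0.93 in control and -0.83 in knockdown cells. Over all tested genes r was -0.82 and -0.63. Genes are not independent replicates, and both measures come from the same libraries, so these are descriptions. The part of this axis in the polysomal contrast was not tested.

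**Figure D5:**
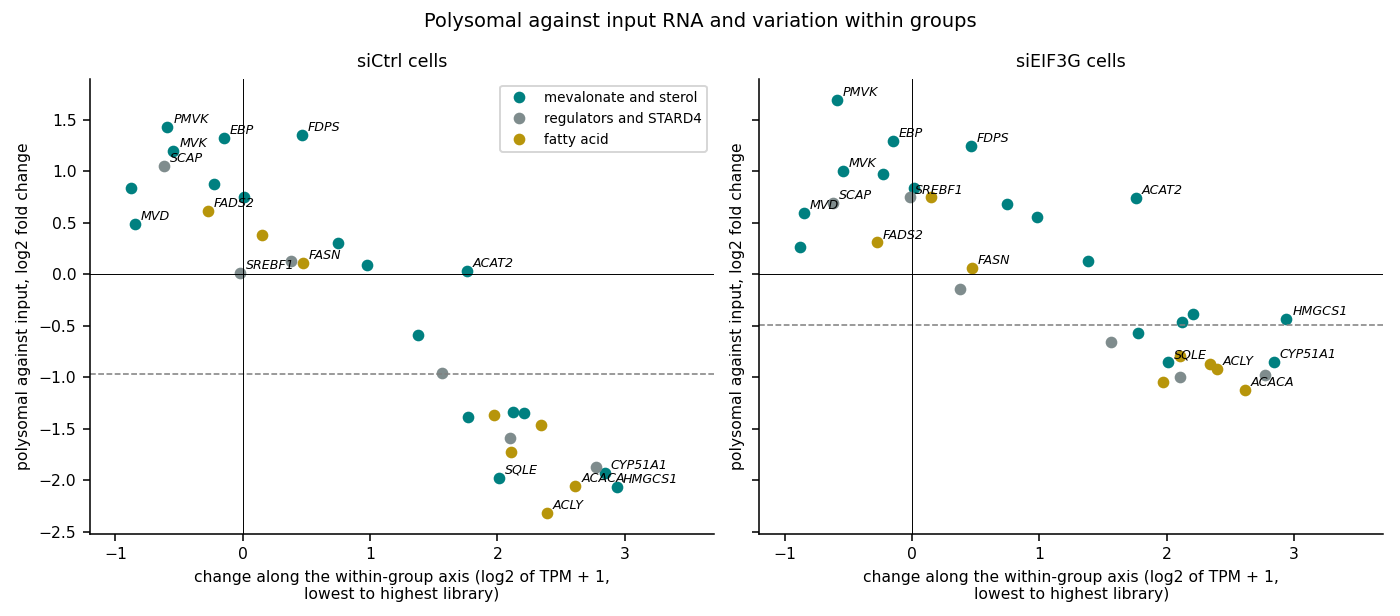
Log2 fold change of polysomal over input RNA of each member (vertical axis) against its change along the first within-group axis (horizontal axis, log2 units from lowest to highest library), in control cells and in knockdown cells, coloured by branch; dashed lines mark the median fold change of all genes. In control cells every member below 0 on the vertical axis lies at 1.38 or more on the horizontal one.

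With each library's place on this axis as a covariate the fold changes stayed the same and their standard errors shrank; the axis was taken from the same residuals, so these errors are too small. Then 1 member was called in input RNA (IDI1, lower, adjusted p = 0.033, beside 0.264% of all genes). In polysomal RNA 7 were called, beside 36.4% of all genes: MVD and MVK lower (3.38% of all genes), and CYP51A1, SQLE, ACACA, ACLY and HMGCS1 higher (33.0%). For polysome loading 8 were called, all higher (18.0%): HMGCS1, IDI1, SQLE, CYP51A1, SC5D, ACACA, ACLY and STARD4.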

How the data were processed

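Input and polysomal RNA of H1299 cells were measured in 12 libraries, 3 a group. The authors deposited TPM values per gene, made with RSEM 1.3.1 on GRCh38.p13 per the submitters' processing notes; not given in the sources used here are the aligner, the annotation, any filter and the use of strand. Each library sums to about 1000000, so depth and counting error are unknown. Values were tested as log2(TPM + 1), which understates the change of low genes, without rescaling. The filter kept the 10605 genes whose mean reached 1 TPM and set 5567 aside. Limma 3.58.1 (R 4.3.3), with the mean-variance trend, fitted 4 group means and 5 contrasts, with Benjamini-Hochberg adjustment over all genes and a threshold of 0.05; the fit was tested on simulated data. The members, branches and lists were chosen with earlier results of these data known. Values in single libraries are printed for members past a threshold or whose siRNA groups did not overlap. They are also printed for the 3 highest and 3 lowest knockdown fold changes except FADS2, and for INSIG1, SREBF1 and SREBF2. Not all 4 groups are given for each member. Alternatives were pseudocounts of 0.1 and 5, no filter or a mean of at least 5 TPM, 3 rescalings, other moderation, only the groups compared, a replicate block, left-out libraries and the axis covariate; branch sums without FDPS and SCD were added after seeing the data. Promoters came from RefSeq (GRCh38.p14).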

Additional observations from a re-analysis of the deposited data

How the results depend on the processing

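Counts of called members were 0 in each knockdown comparison under every alternative but the axis covariate. That gave 1 in input, 7 in polysomal RNA and 8 for loading, beside 0.264%, 36.4% and 18.0% of all genes. Leaving out a library or a replicate number gave 0 to 0. For polysomal against input RNA in control cells 13 members were called, beside 3912 of all 10605 genes. With size factors the count was 18 (14 higher, 4 lower), beside 4661 genes. It was 7 with a pseudocount of 5 (1408 genes) and 5 without the filter (1256 of 16172 genes). A total without ribosomal protein genes gave 20 (5643 genes), and only the groups compared gave 5 (610 genes). Without the 3 libraries that stood apart it was 23 (7960 genes), and with the axis covariate 23 (7878 genes). With a library or replicate number left out it was 0 to 22 (5 to 7185 genes). In knockdown cells 3 members were called, beside 333 of all genes. The count was 0 with size factors (50 genes), 1 with only the groups compared (68 genes) and 25 without the 3 libraries (7541 genes). It was 20 with the axis covariate (6496 genes) and 0 to 6 in leave-outs (8 to 788 genes). The cause was not tested, except that leave-outs and the groups alone use fewer samples. The 3 libraries were picked for likeness to the other fraction, so their removal favours a larger contrast between fractions. Input and polysomal RNA were taken from 1 lysate, but the labels do not say that a replicate number marks a lysate. Same-numbered input and polysomal libraries deviated from their group means with correlations of -0.131, 0.356 and -0.526 in control and -0.454, 0.634 and 0.614 in knockdown cells (all same-numbered pairs: -0.689 to 0.712), which does not show a pairing. With a replicate block 8 members were called in control cells, beside 2121 of all genes. They were the same 6 higher but of the 7 lower ACLY and SQLE alone. In knockdown cells 2 were called (EBP and PMVK), beside 331 of all genes, and 0 in the knockdown comparisons.

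The sterol minus fatty acid difference of medians in polysomal against input RNA was 1.15 (control) and 1.10 (knockdown) with a pseudocount of 5, 0.878 and 0.889 with quantile normalization, and 1.94 and 2.06 without the 3 libraries; leave-outs gave 1.03 to 1.98 and 1.08 to 1.73. For the knockdown effect leave-outs gave -0.45 to 0.13 in input, -0.903 to -0.0871 in polysomal RNA and -0.38 to 0.15 for loading; without the 3 libraries the polysomal value was -0.0871, and quantile normalization gave 0.24 for loading. FDFT1, not called as deposited (0.09, control cells), was at -1.035 and called without replicate 1, with leave-outs from -1.035 to 0.842. Of the single-member values under alternatives, 4147 kept direction and side of the threshold, 122 came to pass it, 168 no longer passed it and 27 uncalled values moved by more than the spread. Without read numbers, low members such as SC5D, INSIG2, ELOVL6 and ACACA, at 0.54 to 4.82 TPM in polysomal RNA, cannot be given a counting error.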

Other observations

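Neighbouring lipid genes, in 6 lists that share no member with the 32, also had no gene past the limma threshold in either knockdown comparison. Fatty acid oxidation is the mitochondrial and peroxisomal breakdown of fatty acids. Its median knockdown log2 fold change in polysomal RNA was 0.66, against 0.33 over all genes, a near tie with sterol transport and storage (0.65). Of the 15 genes of fatty acid oxidation 14 were positive. In 8 of the 15 every knockdown library was higher, beside 21.6% of all genes. HADHA, a subunit of the trifunctional protein, was at 1.68 (SE 0.55), ACADM, an acyl-CoA dehydrogenase, at 1.19 (SE 0.62), and CPT2, which loads fatty acids onto CoA inside mitochondria, at 1.17 (SE 0.47), each with a limma adjusted p of 0.65. In input RNA the median of the list was 0.04, with 9 of 15 positive.

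Other genes of fatty acid synthesis and elongation (15 tested) had medians of -0.14 in input and 0.27 in polysomal RNA. Among them SLC25A1, the citrate carrier that feeds ACLY, was at -0.91 in polysomal RNA (SE 0.29, limma adjusted p = 0.65), and TECR, a reductase of chain elongation, at -0.74 (SE 0.27). Both lay lower in every knockdown library, as did 4 of the list's 15 genes, beside 7.61% of all genes. Acyl-CoA synthetases and glycerolipid genes (12 tested) had medians of -0.20 and 0.11, with ACSL3 at 1.42 (SE 0.78), ACSL4 at 1.28 (SE 0.67) and PCYT2, of phosphatidylethanolamine synthesis, at -0.89 (SE 0.30) in polysomal RNA.

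Around the sterol branch, genes of SREBP processing and sterol sensing (12) had medians of -0.08 in input and 0.33 in polysomal RNA, with the protease MBTPS2 at 0.97 (SE 0.61) in the latter. Sterol transport and storage (10 tested) had medians of -0.10 and 0.65, with OSBP at 1.28 (SE 0.69) and the lysosomal lipase LIPA at 1.27 (SE 0.55). The isoprenoid side branches (11), which use the products of FDPS for prenylation, dolichol and ubiquinone, had medians of 0.08 and 0.58. In polysomal against input RNA of control cells their median was -1.33, against -0.96 over all genes, and 1 of the 11 was called higher and 5 lower, beside 7.98% and 28.9% of all genes. The 7 mevalonate enzymes had a median of 0.49, with 3 called higher and 1 lower.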
